A study of Mus musculus with 10 samples.

Results

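Metallothioneins and the proteins that move and sense zinc were followed across 10 liver samples. The set was chosen by name, as 7 genes: the metallothioneins Mt1 and Mt2, the zinc-sensing transcription factor Mtf1, the exporters Slc30a1 and Slc30a10 and the importers Slc39a4 and Slc39a14. A probe set of its own was named for 5 of the 7, and the series as a whole had 22180 genes with such a probe set. Slc30a1 and Slc30a10 are listed only on probe sets that also carry a second gene, so no value is given for them. The 5 measured genes lay above the array median on all 10 arrays, and all 5 passed the filter that left 13942 genes for testing.

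Livers came from female BALB/cByJ mice, 3 months old. The groups were Pml KO mice fasted for 6 h (3 arrays), Pml KO mice fed ad libitum (2), Pml wt mice fasted for 6 h (3) and Pml wt mice fed ad libitum (2). Pml encodes the protein that organises PML nuclear bodies, and how the knockout was made is not described in the labels. The protocol text mentions food removal for fed samples too, and feeding was therefore read from the titles. Levels are log2 of the normalized intensity that the authors deposited for Affymetrix Mouse Gene 2.1 ST arrays, and differences are log2 differences from 1 limma fit to all arrays, with the standard error (SE). P values are adjusted by Benjamini-Hochberg over all genes tested, and a difference is called when the adjusted p is under 0.05.

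Metallothioneins are small, cysteine-rich proteins that bind zinc, copper and cadmium and buffer the free zinc of a cell. Liver is a main site of their synthesis, and their genes are known to respond to zinc, glucocorticoids, interleukin-6 and fasting. Free zinc is sensed by MTF1, the product of Mtf1, which binds metal response elements in the metallothionein promoters. Transporters of the SLC39 (ZIP) family bring zinc into the cytosol, and transporters of the SLC30 (ZnT) family take it out.

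Array medians lay between 43.5 and 47.5 intensity units. Pml, the targeted gene, was at 6.05, 6.35 and 6.14 in fasted KO, against 7.72, 7.50 and 8.13 in fasted wt (log2 difference -1.60, adjusted p = 0.00433, limma). It was at 6.91 and 6.41 in fed KO, against 8.37 and 8.22 in fed wt (log2 difference -1.63, adjusted p = 0.0398). The 8 hepatocyte markers, Alb and Cps1 among them, lay above the array median on every array. None of the 8 neutrophil markers did so on any array. Fasted KO replicates 1 and 2 stand apart by clock genes: Arntl, the clock activator BMAL1, was at 4.60, 4.53 and 8.87 in fasted KO replicates 1, 2 and 3, against 9.29, 9.04 and 9.16 in fasted wt. The main results on fasted KO liver are therefore also given without these 2 arrays, which leaves 1 fasted KO array that is assumed to vary like the other groups. Nothing says that each array is a separate animal, so the p values measure only the spread between these samples, which may be technical.

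Promoter sequences show where the binding site of MTF1 can be read beside the genes of the set that were called. RefSeq windows were found for 5 of the 7 genes (build GRCm38.p6, 250 bases before to 50 after the start). The windows of Mt1 and Mt2, both on the plus strand, are printed because these 2 genes carry the fasting result. Capitals mark matches to the core of the metal response element, TGCACNC or TGCGCNC, on either strand. The Mt1 window lies at chr8:94178839-94179138 and the Mt2 window at chr8:94172368-94172667.
Mt1: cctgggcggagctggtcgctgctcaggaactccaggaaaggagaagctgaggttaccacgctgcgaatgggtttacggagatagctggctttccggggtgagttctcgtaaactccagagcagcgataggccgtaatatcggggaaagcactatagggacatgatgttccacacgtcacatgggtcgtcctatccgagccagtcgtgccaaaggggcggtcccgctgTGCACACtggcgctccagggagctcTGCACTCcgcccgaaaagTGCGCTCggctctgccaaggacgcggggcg
Mt2: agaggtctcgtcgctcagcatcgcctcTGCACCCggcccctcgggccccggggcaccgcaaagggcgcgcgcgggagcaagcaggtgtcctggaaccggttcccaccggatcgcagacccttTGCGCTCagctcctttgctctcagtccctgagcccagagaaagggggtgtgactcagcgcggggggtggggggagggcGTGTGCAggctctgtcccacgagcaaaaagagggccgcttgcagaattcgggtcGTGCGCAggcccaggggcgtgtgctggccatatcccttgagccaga

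The Mt1 window held 3 matches, which begin at positions -23, 3 and 21 relative to the annotated start. The Mt2 window held 4, which begin at positions -223, -128, -50 and 5, and the last 2 read on the minus strand. Of all 32851 windows of the table, 25.7% held at least 1 match, 1.97% at least 3 and 0.517% at least 4. Slc30a10 had 3 matches, of which 2 overlap on opposite strands, Slc30a1 had 2, and Mtf1 had 0. The antioxidant response element, TGACNNNGC on either strand, occurred once in the windows of Mt2 and Slc30a1 and in 12.4% of all windows. The E-box CACGTG occurred in none of the 5 windows and in 7.15% of all. A match describes the letters and is not evidence of binding. Positions and counts depend on the annotated starts, which were not checked against the starts used in liver. Sites outside the windows were not searched, so a missing element is missing from the window only.

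Both metallothioneins were high in every fasted liver. Mt1 was at 11.04, 10.87 and 11.31 in fasted KO, against 8.88 and 7.82 in fed KO. In wt livers Mt1 was at 10.91, 10.90 and 10.47 after the fast, against 6.22 and 6.996 in fed liver. Every fasted array thus lay above every fed array, in both genotypes together, as it did for 4.51% of all genes tested. Mt2 was at 12.07, 11.85 and 12.14 in fasted KO, against 11.03 and 8.95 in fed KO. It was at 11.91, 11.91 and 11.65 in fasted wt, against 7.48 and 8.76 in fed wt. The Mt2 groups did not overlap either, although fed KO replicate 1 lay closer to the fasted arrays than to the other fed arrays. Such arrays of whole liver cannot tell a change in RNA per cell apart from a change in the number of cells of a type.

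**Figure D1:**
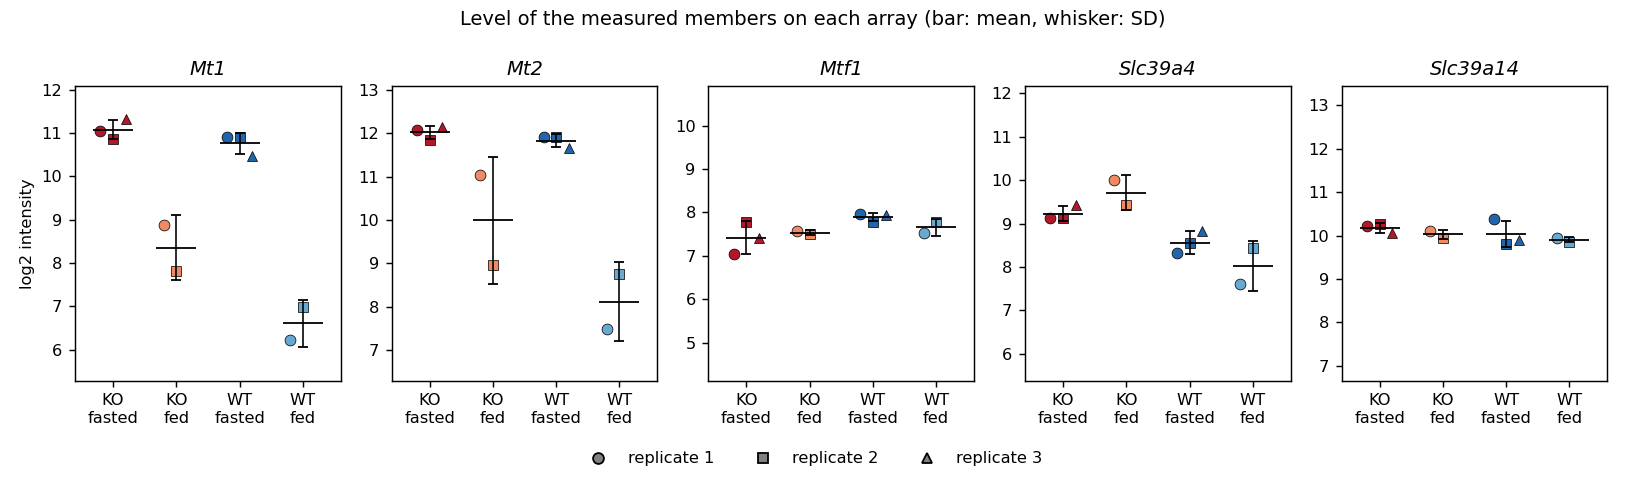
Log2 intensity (y axis) of the 5 measured genes on each of 10 arrays, by group (x axis); points are arrays, the horizontal bar is the group mean and the whisker the SD, and every panel spans the same number of log2 units. Fasted arrays of Mt1 lie between 10.47 and 11.31 and fed arrays between 6.22 and 8.88, while fasted and fed arrays of Mtf1 and Slc39a14 overlap in both genotypes.

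The fast raised Mt1 in wt liver 17.8-fold (log2 4.15, SE 0.32, 95% interval 3.44 to 4.87, adjusted p = 0.000218, limma). Among the 13942 genes tested, only 9 had a larger upward change. Mt2 rose 13.1-fold (log2 3.71, SE 0.52, 95% interval 2.54 to 4.88, adjusted p = 0.00166, limma) and ranked 13 by upward change. These were the 2 of 5 measured genes called in wt, where 8.23% of all genes tested were called higher and 13.2% lower. The Mt2 difference rests in part on single fed arrays: it was 3.07 without fed wt replicate 1 and 4.35 without fed wt replicate 2, and it was called in both cases. Of 11 tested clock genes, limma called 2 higher and 2 lower in fasted wt. Dbp, a clock output gene, was among them, at 6.07, 6.58 and 6.64 in fasted wt, against 9.50 and 9.58 in fed wt. Arntl was not called, at 9.29, 9.04 and 9.16 in fasted wt, against 7.50 and 7.10 in fed wt. With the hour of collection unstated, the wt comparison cannot separate the fast from the state of the clock.

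In KO liver the fast raised Mt1 6.60-fold (log2 2.72, SE 0.32, 95% interval 2.01 to 3.44, adjusted p = 0.0145, limma). It had the third largest upward change of all genes tested. Mt2 was 4.09-fold higher in fasted KO (log2 2.03, SE 0.52, 95% interval 0.86 to 3.20) and missed the threshold (adjusted p = 0.0815, limma), with all 3 fasted arrays above both fed arrays, as for 18.3% of all genes. That left 1 of 5 measured genes called, where 0.811% of all genes tested were called higher and 0.868% lower. Fed KO replicate 1 decided the result for Mt2, which was called without that array (log2 3.07, adjusted p = 0.0293, limma) and was at 0.99 without fed KO replicate 2 (adjusted p = 0.391). The Mt1 call was lost without fed KO replicate 2 (log2 2.19, adjusted p = 0.0870) or fasted KO replicate 3 (log2 2.60, adjusted p = 0.0563), and also with no filter on dim probe sets (log2 2.72, adjusted p = 0.0546).

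Mt1 and Mt2 were high on fasted KO arrays of either clock state. Dbp was at 10.05, 9.80 and 6.00 in fasted KO replicates 1, 2 and 3, against 9.88 and 10.02 in fed KO, so that replicates 1 and 2 had Dbp levels like those of fed liver. Mt1 on the same 3 arrays spanned 10.87 to 11.31 and Mt2 spanned 11.85 to 12.14. Without fasted KO replicates 1 and 2, the Mt1 difference in KO was 2.96 (SE 0.46, adjusted p = 0.0411, limma). The Mt2 difference was then 2.15 (adjusted p = 0.189).

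**Figure D2:**
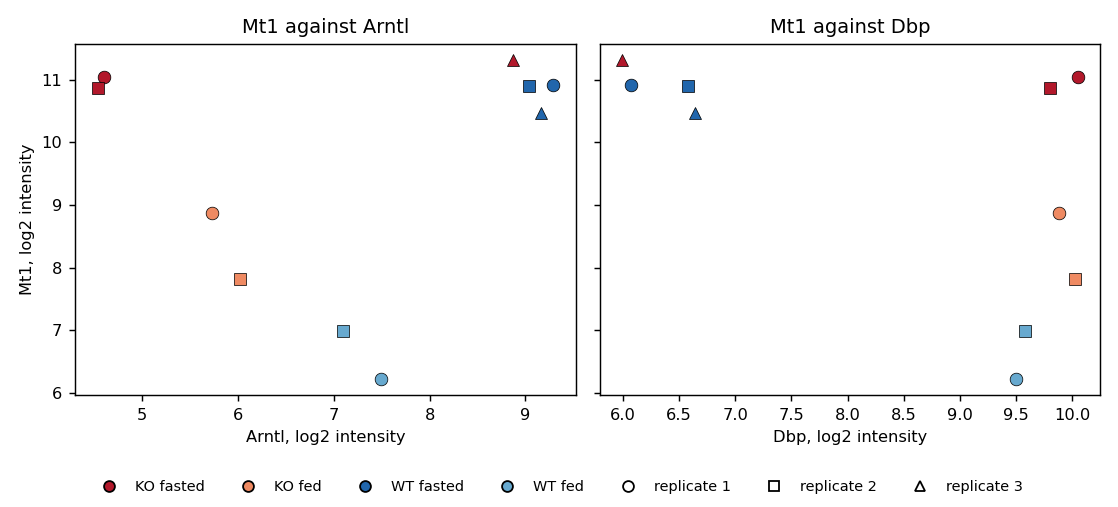
Log2 intensity of Mt1 (y axis) against that of the clock genes Arntl (left) and Dbp (right) on the x axis, with 1 point per array, colours for the 4 groups and shapes for replicates. Fasted KO replicates 1 and 2 share Mt1 levels of 11.04 and 10.87 with the other fasted arrays while their Arntl levels are 4.60 and 4.53.

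Before the fast, metallothionein levels differed between the genotypes without reaching the threshold. Mt1 was 3.35-fold higher in fed KO than in fed wt (log2 1.74, SE 0.35, 95% interval 0.96 to 2.52, adjusted p = 0.182, limma), and both fed KO arrays lay above both fed wt arrays. Mt2 was 3.66-fold higher in fed KO (log2 1.87, SE 0.57, 95% interval 0.59 to 3.15, adjusted p = 0.361), also without overlap. The Mt2 value was 0.83 without fed KO replicate 1 and 2.91 without fed KO replicate 2, and neither was called. Across all genes tested, 16.2% had both fed KO arrays above both fed wt arrays. Mt1, Mt2 and Slc39a4 held ranks 12, 10 and 15 by upward difference among the 13942 genes in this comparison. No measured gene was called by limma, 3 of 5 had an unadjusted p under 0.05, and 0.0861% of all genes tested were called. Arntl was at 5.72 and 6.02 in fed KO, against 7.50 and 7.10 in fed wt. Limma called 0 of 11 tested clock genes between the fed groups, with 0 at an unadjusted p under 0.05. The spread of each gene comes from all arrays, and for Arntl and Dbp it includes the split among fasted KO arrays. This count therefore cannot decide whether the fed groups differed in clock state.

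After the fast the genotypes were close. The difference of fasted KO from fasted wt was 0.31 for Mt1 (95% interval -0.32 to 0.95, adjusted p = 0.510) and 0.20 for Mt2 (95% interval -0.85 to 1.24, adjusted p = 0.823), and the arrays overlapped for both genes. Without fasted KO replicates 1 and 2 the differences were 0.55 (adjusted p = 0.546) and 0.31 (adjusted p = 0.866). No measured gene was called by limma, 2 of 5 had an unadjusted p under 0.05, and 11.1% of all genes tested were called.

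The fasting change was smaller in KO than in wt for both metallothioneins, yet the difference between the responses was not called. The interaction was -1.43 for Mt1 (SE 0.45, 95% interval -2.44 to -0.42, adjusted p = 0.127, limma). For Mt2 it was -1.68 (SE 0.74, 95% interval -3.33 to -0.02, adjusted p = 0.244). With 1 array left out, the interaction ran from -0.90 (without fed KO replicate 1) to -1.96 (without fed KO replicate 2) for Mt1, and from -0.64 to -2.71 for Mt2 without the same arrays. With fasted KO replicates 1 and 2 left out, it was -1.19 for Mt1 (adjusted p = 0.319) and -1.56 for Mt2 (adjusted p = 0.435). Both values come with fasted levels near one another and fed levels that are higher in KO. Of the 5 measured genes limma called 0 for the interaction, with 3 at an unadjusted p under 0.05, and 2.11% of all genes tested were called.

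**Figure D3:**
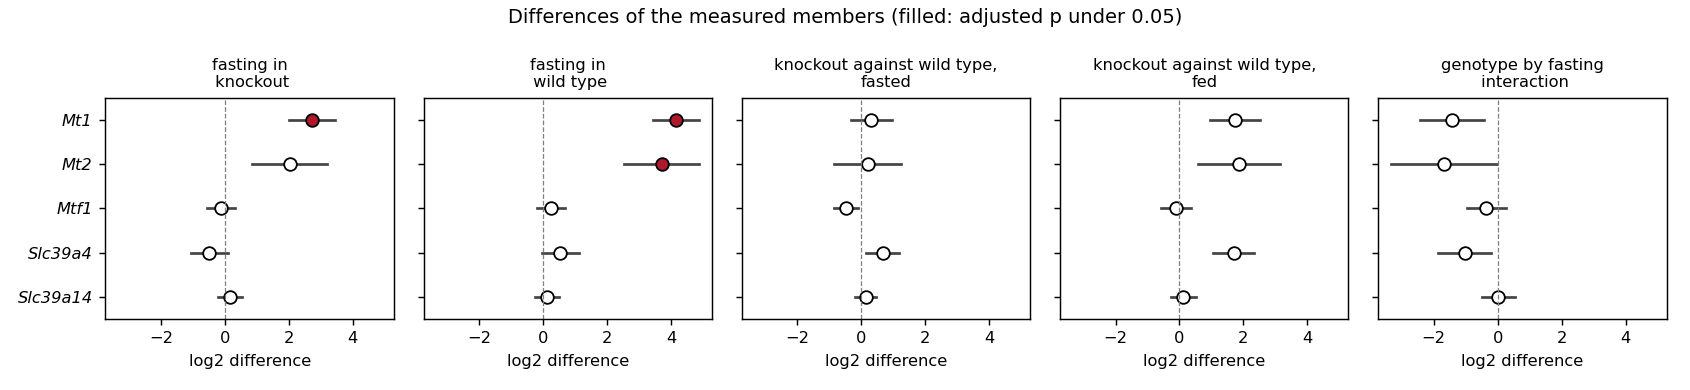
Log2 differences (x axis) of the 5 measured genes (rows) in 5 comparisons (panels), with 95% intervals as lines and filled points for an adjusted p under 0.05. Filled points are seen only for Mt1 in both genotypes and Mt2 in wt under fasting.

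Mtf1, which encodes the zinc sensor, was measured by a probe set of its own. It was at 7.04, 7.79 and 7.42 in fasted KO, against 7.57 and 7.50 in fed KO. The wt levels were 7.96, 7.78 and 7.95 after the fast, against 7.52 and 7.78 in fed liver. Fasted and fed arrays overlapped in both genotypes. The fasting difference was -0.12 in KO (95% interval -0.55 to 0.31, adjusted p = 0.781) and 0.24 in wt (95% interval -0.19 to 0.67, adjusted p = 0.412). In fasted liver Mtf1 was 0.48 lower in KO on the log2 scale (log2 difference -0.48, 95% interval -0.86 to -0.09, adjusted p = 0.103, limma), with overlap through fasted KO replicate 2. The value depended on single arrays: it was -0.66 without fasted KO replicate 2, with a call (adjusted p = 0.0302), and -0.29 without fasted KO replicate 1 (adjusted p = 0.293). Without both it was -0.47 (adjusted p = 0.174).

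Slc39a4 encodes ZIP4, the importer that takes up dietary zinc in the intestine and whose human gene is mutated in the zinc deficiency acrodermatitis enteropathica. Its levels were 9.14, 9.13 and 9.42 in fasted KO, 10.00 and 9.43 in fed KO, 8.31, 8.54 and 8.83 in fasted wt, and 7.61 and 8.43 in fed wt. All 5 KO arrays lay above all 5 wt arrays, a separation in this direction that 0.646% of all genes tested showed. Averaged over feeding, a comparison added after these values were seen, Slc39a4 was 2.27-fold higher in KO (log2 1.18, SE 0.18, 95% interval 0.77 to 1.59) with an adjusted p of 0.05002 (limma), just short of the threshold, where 0.172% of all genes were called.

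Within feeding states the Slc39a4 difference of KO from wt was 1.69 in fed liver (SE 0.28, 95% interval 1.06 to 2.33, adjusted p = 0.112, limma) and 0.67 in fasted liver (SE 0.23, 95% interval 0.15 to 1.19, adjusted p = 0.0935). Fasting differences had opposite signs, -0.49 in KO (adjusted p = 0.345) and 0.54 in wt (adjusted p = 0.169), and neither was called. In wt that difference was 0.96 without fed wt replicate 2, with a call (adjusted p = 0.0432), and 0.13 without fed wt replicate 1 (adjusted p = 0.810). The interaction was -1.03 (SE 0.37, 95% interval -1.85 to -0.20, adjusted p = 0.164). Without fasted KO replicates 1 and 2 the interaction was -0.84 (adjusted p = 0.384) and the fasted difference of KO from wt 0.86 (adjusted p = 0.260). The averaged difference was called without fasted KO replicate 3 (log2 1.13, adjusted p = 0.0289) and was 1.28 without fasted KO replicates 1 and 2 (adjusted p = 0.203). Acinar pancreas, a tissue that also expresses Slc39a4, had markers with summed intensities of 254 to 305 in fasted KO, against 249 to 273 in fasted wt. In fed liver the sums were 279 to 293 in KO, against 254 to 288 in wt. Of its 8 measured markers, Prss1, Ctrb1, Cel and Try5 lay below the array median on all 10 arrays. Pnliprp1, Cela1 and Cpa1 passed the filter and were not called between the genotypes in either feeding state, while Pnliprp1 rose with the fast in wt (log2 0.77, adjusted p = 0.0193).

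Slc39a14 encodes ZIP14, an importer of zinc, iron and manganese in hepatocytes that is known to be induced by interleukin-6. It was at 10.22, 10.26 and 10.05 in fasted KO, against 10.10 and 9.95 in fed KO. In wt it was at 10.38, 9.81 and 9.91 after the fast, against 9.95 and 9.86 in fed liver. The arrays overlapped between fasted and fed in both genotypes. The fasting difference was 0.15 in KO (95% interval -0.22 to 0.52, adjusted p = 0.661) and 0.13 in wt (95% interval -0.24 to 0.49, adjusted p = 0.624). These intervals bound any fasting change of Slc39a14 at 0.52 log2 units, far under the change of Mt1.

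The order of the group means was the same for Mt1 and Mt2. From high to low it ran from fasted KO (11.07 ± 0.22 for Mt1, SD, n = 3) and fasted wt (10.76 ± 0.25, SD, n = 3) to fed KO (8.35 ± 0.75, SD, n = 2) and fed wt (6.61 ± 0.55, SD, n = 2). The first 2 of these groups overlapped. For Slc39a4 the order was fed KO (9.72 ± 0.40, SD, n = 2), fasted KO (9.23 ± 0.17, SD, n = 3), fasted wt (8.56 ± 0.26, SD, n = 3) and fed wt (8.02 ± 0.59, SD, n = 2), and the wt groups overlapped. Group means of Slc39a14 spanned 9.90 to 10.18 and had no order beyond their spread.

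Mt1 and Mt2 lie side by side on chromosome 8, next to Mt3 and Mt4, and correlated across the 10 arrays with Pearson r = 0.98. Fasted and fed arrays form 2 clusters there, so the value mostly restates the feeding difference. Mt3 and Mt4, metallothioneins of brain and of stratified epithelium, were too dim to be tested: Mt4 lay below the array median on all arrays and Mt3 on all but 1. The nearest tested neighbours, Bbs2 on the side of Mt4 and Nup93 on the side of Mt1, were not called. Bbs2, a ciliary protein gene, had a fasting difference of 0.46 in KO (adjusted p = 0.154) and -0.22 in wt (adjusted p = 0.335). Nup93, which encodes a nuclear pore protein, had 0.42 in KO (adjusted p = 0.372) and -0.47 in wt (adjusted p = 0.194). Beyond Nup93, Herpud1 was called higher in fasted wt (log2 0.72, SE 0.14, adjusted p = 0.00719, limma) and had -0.15 in KO (adjusted p = 0.614).

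Genes with the most similar profile were sought by Pearson r over the same 10 arrays, given as a description. Nearest to Mt1 were Decr2, a peroxisomal reductase of unsaturated fatty acid oxidation (r = 0.99), Mt2, Bckdhb, a subunit of the branched-chain keto acid dehydrogenase (0.97), the protein phosphatase gene Ppm1a (0.96) and Ech1, an isomerase of fatty acid oxidation (0.96). Nearest to Mt2 were Alas1, the rate-limiting enzyme of heme synthesis in liver (r = 0.98), Mt1, Decr2 (0.98), Ech1 (0.95) and Eif4e3, a cap-binding protein gene (0.94). All of these values rest largely on the contrast of 6 fasted with 4 fed arrays.

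Other zinc transporters were tested in the same fit. Of 10 tested importers of the SLC39 family outside the set, 0 were called higher and 1 lower in fasted KO, and 0 higher and 2 lower in fasted wt. Of all genes, 0.811% were called higher and 0.868% lower in KO, and 8.23% higher and 13.2% lower in wt. The median fasting difference of these 10 was -0.03 in KO and -0.17 in wt, beside 0.01 and -0.02 over all genes tested. Slc39a10 encodes ZIP10, a plasma membrane importer. It fell in KO to 4.98, 5.22 and 5.13, against 6.29 and 6.35 in fed KO. In wt it fell to 5.21, 5.29 and 5.12, against 6.00 and 6.66 in fed wt. The 6 fasted arrays lay below the array median, so the fall was at least 1.76-fold in KO (adjusted p = 0.0278, limma) and at least 1.74-fold in wt (adjusted p = 0.00245), where the brighter group mean is set against that median. The call in KO was lost without fasted KO replicates 1 and 2 (log2 -1.20, adjusted p = 0.0632). Slc39a11 (ZIP11) fell in wt by 0.82 on the log2 scale (log2 -0.82, SE 0.17, adjusted p = 0.00918) and had -0.36 in KO (adjusted p = 0.286). Slc39a8 (ZIP8), the closest relative of ZIP14, had -0.16 in KO (adjusted p = 0.644) and -0.46 in wt (adjusted p = 0.0703).

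Of 7 tested exporters of the SLC30 family outside the set, limma called 0 in fasted KO, with 1 at an unadjusted p under 0.05. In fasted wt it called 1, which was lower. That gene was Slc30a7 (ZnT7), a transporter that loads zinc into the early secretory pathway. Its level was 8.13, 8.12 and 8.16 in fasted wt, against 8.40 and 8.45 in fed wt (log2 -0.29, SE 0.09, adjusted p = 0.0463). In KO it was at 8.19, 8.25 and 8.19 after the fast, against 8.25 and 8.23 (log2 -0.03, adjusted p = 0.902). Between the genotypes limma called 0 of the 17 tested transporters outside the set in fed liver and 0 in fasted liver, with 1 at an unadjusted p under 0.05 in each state.

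**Figure D4:**
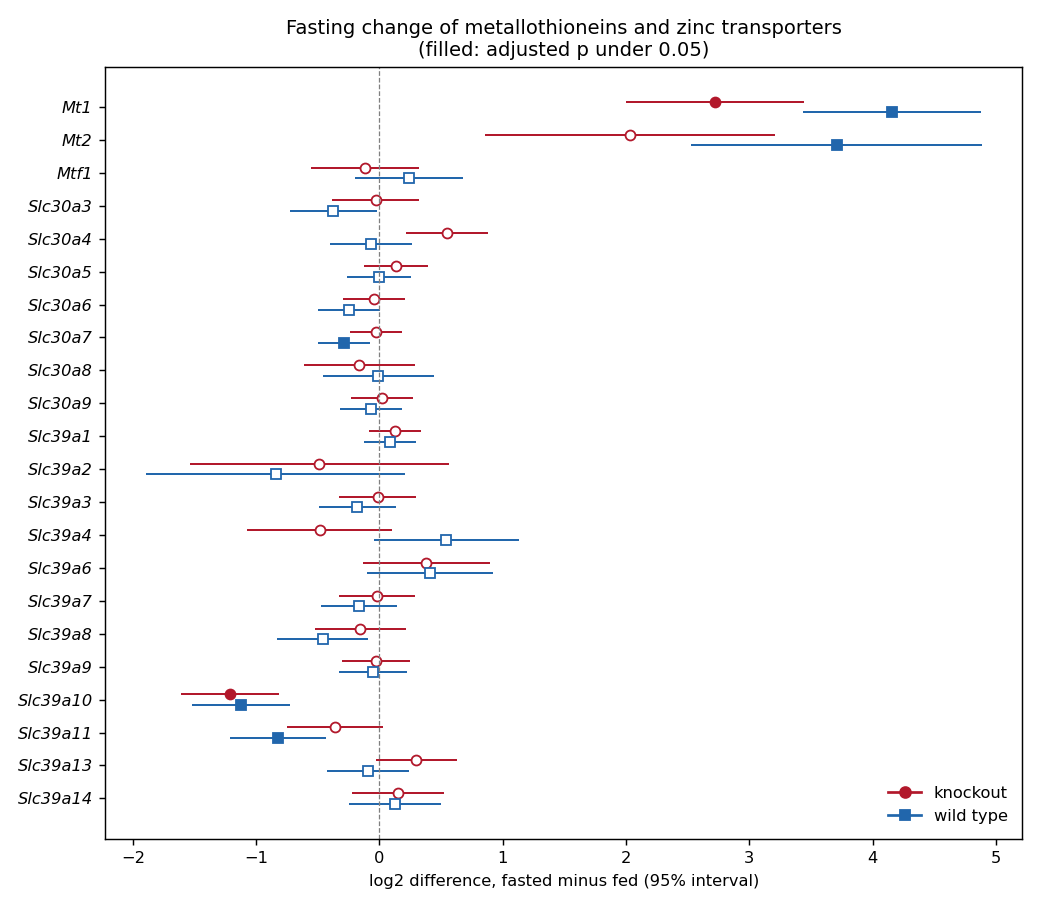
Fasting difference in log2 units (x axis, fasted minus fed) of Mt1, Mt2, Mtf1 and the tested zinc transporters (rows), in KO (circles) and wt (squares), with 95% intervals as lines and filled symbols for an adjusted p under 0.05. Mt1 and Mt2 lie between 2.03 and 4.15 while no transporter is called higher and Slc39a10 is called lower in both genotypes.

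Glucocorticoid-induced liver genes, a class that metallothioneins belong to, were set beside them. Of 14 tested genes, 2 were called higher and 0 lower in fasted KO, and 10 higher and 0 lower in fasted wt. Of all genes, 0.811% were called higher and 0.868% lower in KO, and 8.23% higher and 13.2% lower in wt. The median difference was 0.10 in KO and 0.91 in wt, beside 0.01 and -0.02 over all genes. Fkbp5, a chaperone of the glucocorticoid receptor, was at 7.79, 8.18 and 8.28 in fasted KO, against 7.52 and 6.76 in fed KO, and the difference was not called (log2 0.95, adjusted p = 0.0700). In wt it rose to 9.17, 9.02 and 8.79, against 6.55 and 6.27 in fed wt (log2 2.59, SE 0.23, adjusted p = 0.000318). Its interaction of -1.64 was called (SE 0.33, adjusted p = 0.0426), as was that of Zbtb16, a transcription factor gene (-1.81, SE 0.27, adjusted p = 0.0264). Limma called these 2 of the 14 genes for the interaction, beside 2.11% of all genes tested. Without fasted KO replicates 1 and 2, limma called 0 of all genes for the interaction, with 2561 at an unadjusted p under 0.05, and the values were -1.45 for Fkbp5 and -1.83 for Zbtb16. Fed KO replicate 1, the fed array with the highest Mt1 and Mt2, also had the highest Fkbp5 of the 4 fed arrays. That concerns 1 array and 1 of the 14 genes, and a link to the metallothionein levels was not tested. Between the fed groups limma called 1 of the 14 genes, Zbtb16, higher in KO, where 0.0861% of all genes were called. The median difference was 0.30, beside -0.02 over all genes. In fasted liver limma called 0 higher in KO and 3 lower, Fkbp5, Gadd45b and Tdo2, where 11.1% of all genes were called. The median was then -0.31, beside 0.01, and -0.19 without fasted KO replicates 1 and 2. Gadd45b, a stress gene, rose by 2.49 in KO (adjusted p = 0.0323) and 4.72 in wt (adjusted p = 0.000313), and Dusp1, a phosphatase of MAP kinases, by 0.82 (adjusted p = 0.0483) and 1.19 (adjusted p = 0.00167). Without those 2 arrays the KO differences were 3.12 for Gadd45b (adjusted p = 0.0108) and 0.81 for Dusp1, which lost its call (adjusted p = 0.0707).

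Interleukin-6 and acute phase genes were mixed. Of 20 tested genes limma called 0 in fasted KO, with 4 at an unadjusted p under 0.05, and called 5 higher and 0 lower in fasted wt. Of all genes, 0.811% were called higher and 0.868% lower in KO, and 8.23% higher and 13.2% lower in wt. The median difference was 0.12 in KO and -0.03 in wt. Cebpb, a transcription factor of the acute phase response, was at 8.91, 8.91 and 8.71 in fasted KO, against 8.77 and 8.01 in fed KO. It was at 9.30, 9.27 and 8.92 in fasted wt, against 7.24 and 7.28 in fed wt (log2 1.91, SE 0.20, adjusted p = 0.000587). Cebpb had both fed KO arrays above both fed wt arrays (log2 1.13, SE 0.22), without a call, as did 16.2% of all genes tested. Between the fed groups limma called 0 of the 20 genes, and their median difference was -0.06. For the interaction limma called 2 of the 20, Il6ra and Cebpb, both negative, beside 2.11% of all genes tested. The Cebpb interaction was -1.45 (SE 0.29, adjusted p = 0.0426, limma), and -1.58 without fasted KO replicates 1 and 2. Lcn2, an iron-sequestering lipocalin, had 1.62 in KO (adjusted p = 0.0748) and rose by 1.80 in wt (adjusted p = 0.0134). Hp, the hemoglobin scavenger haptoglobin, had 0.32 in KO (adjusted p = 0.195) and rose by 0.66 in wt (adjusted p = 0.00533).

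Oxidant and heavy metal response genes share inducers with metallothioneins. Of 12 tested genes limma called 0 in fasted KO, with 1 at an unadjusted p under 0.05, and 1 higher and 1 lower in fasted wt. In wt 8.23% of all genes were called higher and 13.2% lower, so these counts are near the share over all genes. Txnrd1, a thioredoxin reductase gene, rose by 0.42 in wt (adjusted p = 0.0429), and Gstm3, a glutathione transferase gene, fell by 0.94 on the log2 scale in wt (log2 -0.94, adjusted p = 0.0310). Hmox1, the heme oxygenase gene induced by cadmium and heme, had -0.19 in KO (adjusted p = 0.591) and 0.09 in wt (adjusted p = 0.746). In KO against wt fasted liver, limma called 1 of the 12 higher and 1 lower, where 11.1% of all genes were called. An unadjusted p under 0.05 was found for 7 of the 12, and their median difference was -0.28, beside 0.01 over all genes. Nqo1 was higher by 1.01 (adjusted p = 0.0165) and the heat shock gene Hspa1b had a log2 difference of -2.31 (adjusted p = 0.00433). Hspa1b has a near-identical copy that may share its probes. Neither was called without fasted KO replicates 1 and 2, at 0.54 for Nqo1 (adjusted p = 0.225) and -2.49 for Hspa1b (adjusted p = 0.0708).

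Summed marker intensities of other cell types were compared with the same groups. In KO, sums after the fast were 4724 to 5329 for 10 macrophage markers, against 4221 to 4537 in fed KO. For 5 cholangiocyte markers they were 259.4 to 282.1, against 235.7 to 258.9, which nearly meet. Of all genes tested, 18.3% had all fasted KO arrays above both fed KO arrays. For fasting in KO, limma called 0 of 10 tested macrophage markers and 0 of 4 tested cholangiocyte markers. In wt, 5 adipocyte markers were at 417 to 511 after the fast, against 294 to 360 in fed wt, and 8 stellate markers at 6928 to 7649, against 6645 to 6704, although limma called 0 of 7 tested stellate markers higher and 2, Lrat and Col3a1, lower. The cholangiocyte sum in wt was 297 to 330 after the fast, against 273 to 288 in fed wt. For fasting in wt, limma called 0 of 3 tested adipocyte markers and 0 of 4 tested cholangiocyte markers. In KO the adipocyte sums overlapped, at 351 to 520 after the fast, against 354 to 369 in fed KO. Stellate sums in KO also overlapped, at 6492 to 6905 against 6033 to 6763. Of 10 macrophage markers, limma called 3 higher in fasted KO than in fasted wt, where 11.1% of all genes were called, and 0 without fasted KO replicates 1 and 2 (4 at an unadjusted p under 0.05). It called 2 lower in fasted than in fed wt. Lep, Retn and Cftr lay below the array median on all arrays. The part of these cells in the metallothionein result was not tested.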

How the data were processed

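For 41345 probe sets on 10 arrays, the values deposited by the authors are normalized intensities that are not on a log scale. RMA in Affymetrix Expression Console is named per the submitters' processing notes, with no version. Since each array holds 228 to 489 values under 0.1, how probes were summarised is not settled. Log2 was taken of each deposited intensity, with no further normalization. The platform table gave 1 symbol to 23521 probe sets, several to 1814 and none to 16010, and genes were named only from probe sets with 1 symbol. A probe set was kept when above the array median on at least 2 arrays, and the brightest stood for its gene.

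The 4 groups each had a mean in 1 linear model, fitted in limma 3.58.1 under R 4.3.3 (prior degrees of freedom 3.63, residual 6), with Benjamini-Hochberg adjustment over 13942 genes, and was tested on simulated data. No batch is given, so none was modelled. The small number of arrays limits the precision. All 7 genes of the set were named, up to 4 genes of each list with the smallest p, and the 5 most similar profiles for Mt1 and Mt2, leaving out predicted and numbered symbols. Genes outside this rule (Bbs2, Nup93, Herpud1, Hmox1, Slc39a8) were chosen for their position or role. The genes, lists and tests were chosen with earlier results of these data known. Promoters come from RefSeq (GRCm38.p6). Alternatives changed the scaling, filter, pseudocount, probe set summary, moderation, array weights, replicate block and arrays used.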

Additional observations from a re-analysis of the deposited data

How the results depend on the processing

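Across 21 alternatives (20 for the interaction and the averaged comparisons), Mt1 and Mt2 stayed called for fasting in wt (Mt1 3.77 to 4.54, adjusted p 6.1e-05 to 0.00181, limma), no called difference changed sign, and 0 of the measured genes were called in fed KO against wt or for the interaction. The count of genes called for fasting in KO was 0, in place of 1, with no filter on dim probe sets (Mt1 2.72, adjusted p = 0.0546) and with the replicate number as a block (Mt1 2.74, adjusted p = 0.0699), and was 0 to 2 when 1 array was left out (Mt1 2.19 to 3.25, Mt2 0.99 to 3.07). In KO against wt fasted liver, the count was 1, Slc39a4, with only the groups compared in the fit (0.67, adjusted p = 0.0483), and 0 to 1 with 1 array left out. The gene called with 1 array left out was Mtf1, lower in KO without fasted KO replicate 2 (-0.66, adjusted p = 0.0302, limma). Averaged over feeding, it was 1, Slc39a4, after centring, with a pseudocount of 16, with a stricter filter, with the mean of probe sets, with trended robust moderation and with array weights, and 0 to 1 with 1 array left out (Slc39a4 adjusted p 0.0248 to 0.203 over all alternatives). Among the differences given that were not called, signs turned with 1 array left out for Slc39a14 in fasted wt (-0.05 to 0.24) and Mtf1 in fasted KO (-0.30 to 0.07). Over all genes, 234 were called for fasting in KO, against 10 with no filter, 452 with a stricter one, 504 with trended robust moderation, 16 with only the groups compared, 0 with the block (2310 at an unadjusted p under 0.05) and 1 to 170 with 1 array left out. For the interaction 294 were called, against 4 with no filter, 501 with a stricter one, 520 with trended robust moderation 137 with the block and 2 (without fed KO replicate 2) to 360 with 1 array left out. The 1549 calls in fasted KO against wt became 654 with no filter 850 with only the groups compared, 6 without fasted KO replicates 1 and 2 and 435 to 1501 with 1 array left out. With the block, the KO fasting calls of Slc39a10, Gadd45b and Dusp1 (adjusted p 0.0699, 0.0826 and 0.120) and the Atp7b call in fasted KO against wt (0.0518) were lost. With group means removed, same-numbered arrays correlated at -0.173 to 0.105 in 13 pairs, and 3 of 6 fasted arrays correlated best with their own number. Groups of 2 and 3 arrays make these values weak and dependent on one another. Whether the numbers pair the samples is therefore not settled. Groups of 2 and 3 arrays limit every estimate, and genes near the array median have little signal over background.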

Other observations

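Copper and iron genes share transporters or metallothionein binding with zinc. Of 10 tested copper genes limma called 0 in fasted KO, with 1 at an unadjusted p under 0.05, and 0 higher and 2 lower in fasted wt, where 8.23% of all genes were called higher and 13.2% lower. Atp7b, the copper pump whose loss causes Wilson disease, had a fasting difference of -0.59 in KO (adjusted p = 0.0998) and fell in wt (log2 -0.94, SE 0.16, adjusted p = 0.00429). In fasted liver it was higher in KO than in wt by 0.62 (SE 0.15, adjusted p = 0.0297), the only call among the 10 copper genes, where 11.1% of all genes were called. Without fasted KO replicates 1 and 2 it was 0.47 for Atp7b, with no call (adjusted p = 0.280). Sco1, a copper chaperone of cytochrome oxidase, had -0.06 in KO (adjusted p = 0.815) and fell in wt (log2 -0.49, SE 0.11, adjusted p = 0.0133). Of 12 tested iron genes limma called 0 in fasted KO, with 0 at an unadjusted p under 0.05, and 0 in fasted wt, with 2 at an unadjusted p under 0.05.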
